A study of Drosophila melanogaster with 9 samples.

Results

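The 10 genes described here regulate mitosis and the endocycle in Drosophila melanogaster: stg, Cdk1, CycA, CycB, CycB3, polo, fzy, fzr, CycE and dap. They were chosen by name, with earlier results of these data known, and all 10 were found among the 14409 genes of the deposited table. Of these, 9 stood under their own symbol, and fzr stood under its older symbol rap and was found by its identifier FBgn0262699. RNA was sequenced from whole ring glands, the larval endocrine organ that holds the prothoracic gland, the corpora allata and the corpora cardiaca. All 9 libraries came from w1118 larvae, a white-eyed laboratory strain with no added transgene in the labels. The groups, of 3 libraries each, were feeding larvae and larvae deprived of food on either side of the nutrient restriction checkpoint (NRC), called pre-NRC and post-NRC starvation. Each library was a pool of about 1200 glands, so values are averages over many animals and over all cell types of the organ. The headers of the feeding columns carry 108 hours with no stated start, and for the starved groups neither an age nor a length of starvation is stated. Starvation and larval age therefore cannot be told apart in the comparisons with feeding. Between the starved groups, the side of the checkpoint, larval age and length of starvation cannot be told apart either.

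As background, the kinase Cdk1 bound to a mitotic cyclin drives a cell into mitosis, once the phosphatase encoded by stg has removed an inhibitory phosphate. The kinase polo promotes entry into and progress through mitosis, and the anaphase-promoting complex, a ubiquitin ligase, ends it by marking cyclins for destruction with fzy as its activator. In an endocycle a cell repeats DNA replication without dividing and becomes polyploid: CycE with its kinase Cdk2 drives each S phase, dap inhibits that kinase, and fzr, the other activator of the ligase, keeps mitotic cyclins low. Prothoracic gland cells of the fly larva grow by endocycles, and the number of their endocycles is known to matter for ecdysone production around the checkpoint.

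In the annotation of the build BDGP6.54 the genes lie apart from each other. On 2L lie Cdk1 (10384739 to 10386262, minus strand), CycE (15727581 to 15748150, minus strand) and fzy (16310956 to 16313097, plus strand). On 2R lie dap (9712321 to 9716256, plus strand) and CycB (22803521 to 22806948, minus strand), and on 3L lie CycA (11826719 to 11833578, minus strand) and polo (20309654 to 20313466, plus strand). On 3R lie CycB3 (24867934 to 24870816, minus strand) and stg (29251826 to 29255800, minus strand), and fzr lies on X (4667290 to 4679537, minus strand). For 8 of the 10 genes no exon base is shared with another gene. The exons of CycE share 4.91% of their bases with 2 antisense non-coding RNAs, and those of fzy share 62 bases (3.11%) with cact on the opposite strand. How the counting treated strand is not stated, so a small part of the counts of CycE and fzy may belong to these neighbours.

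Total counts ran from 29123939 to 36131089 per library. Replicate 3 of pre-NRC starvation stood apart from its group: it had the highest level of the 3 libraries for 9 of the 10 genes and the lowest for fzr. Replicate 2 of post-NRC starvation had the lowest level of its group for 6 of the 10 genes. Cell type markers also differed between libraries. The summed level of 6 prothoracic gland genes was 26109 to 36430 CPM (counts scaled to library size) in feeding, 3654 to 11190 in pre-NRC starvation with the highest value in replicate 3, and 17820 to 22875 in post-NRC starvation. The sum of 2 corpora cardiaca genes was 1423 to 4729, 8550 to 17593 and 4580 to 9030 CPM in the same order. The sum of 9 hemocyte and lymph gland genes was 872 to 2400, 2577 to 3955 and 1068 to 1618 CPM, and that of 7 muscle and aorta genes 2980 to 3235, 4483 to 7295 and 1455 to 3104 CPM. The 6 fat body genes summed to 633 to 1717 CPM in feeding, to 8.59 to 2022 in pre-NRC starvation with the highest value again in replicate 3, and to 446 to 1591 in post-NRC starvation. The 9 neuroblast and neuron genes had sums of 50.2 to 104 CPM in feeding larvae and of 107 to 137 CPM under pre-NRC starvation. Under post-NRC starvation the sums were 69.5 to 132 CPM. In edgeR 3 of the 8 tested were called higher in pre-NRC starvation than in feeding (median log2 change 1.24), beside 16.1% of all genes. Not all followed: elav had 6.78, 9.73 and 42.9 CPM in pre-NRC starvation and 9.75, 20.7 and 50.7 CPM in feeding. Of the neuroblast genes in this list, dpn, ase and wor were at 2.45 CPM or less in every library and mira at 5.85 to 14.1 CPM. Also lower in pre-NRC starvation were the sums of 4 salivary gland genes (192 to 1379, 3.86 to 57.3 and 19.4 to 2243 CPM in feeding, pre-NRC and post-NRC starvation) and of 3 tracheal genes (404 to 716, 208 to 363 and 294 to 532 CPM). The ranges of the corpora allata gene jhamt were 654 to 713, 511 to 818 and 434 to 555 CPM. Those of 3 glial genes were 29.3 to 79.0, 28.8 to 64.6 and 36.0 to 46.9 CPM, and those of 6 imaginal disc genes 91.0 to 176, 89.0 to 101 and 130 to 181 CPM, with the wing disc gene vg at 2.23 CPM or less. Against feeding, 6 of 6 prothoracic gland and 1 of 4 salivary gland genes were called lower in pre-NRC starvation, beside 11.5% of all genes. Called higher were 2 of 2 corpora cardiaca, 3 of 9 hemocyte and lymph gland, 3 of 7 muscle and aorta and 1 of 3 glial genes. In such bulk samples fewer cells of a type and less RNA per cell cannot be told apart. Whether the makeup of the pools had a part in the results below was not tested.

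In feeding larvae all 10 genes were expressed. On the FPKM scale, which divides by gene length and so lets genes be compared, stg had the highest mean level, 41.5 ± 5.24 (SD, n = 3), and CycE the lowest, 4.58 ± 1.05. Between them stood Cdk1 (23.9 ± 3.98 FPKM), CycA (23.2 ± 1.36), polo (21.6 ± 2.98) and fzr (21.0 ± 0.68), neighbours that did not differ beyond their spread. The level of CycB was 18.0 ± 1.20 FPKM, below fzr and above dap by more than the spread. Then came dap (11.1 ± 0.95 FPKM), fzy (9.86 ± 1.26) and CycB3 (9.64 ± 1.01), where neighbours in the order did not differ beyond their spread. The means of dap and CycB3, which are not neighbours, were further apart than either SD. In pre-NRC starvation fzr came first with 17.9 ± 2.64 FPKM and stg second with 13.7 ± 5.88, and CycE was again last with 1.60 ± 1.97. No neighbours in that order differed beyond their spread. In post-NRC starvation stg was first again with 26.3 ± 3.42 FPKM, Cdk1 followed with 21.1 ± 2.80 and fzr with 18.1 ± 2.25, and CycE was last with 3.69 ± 1.39.

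**Figure D1:**
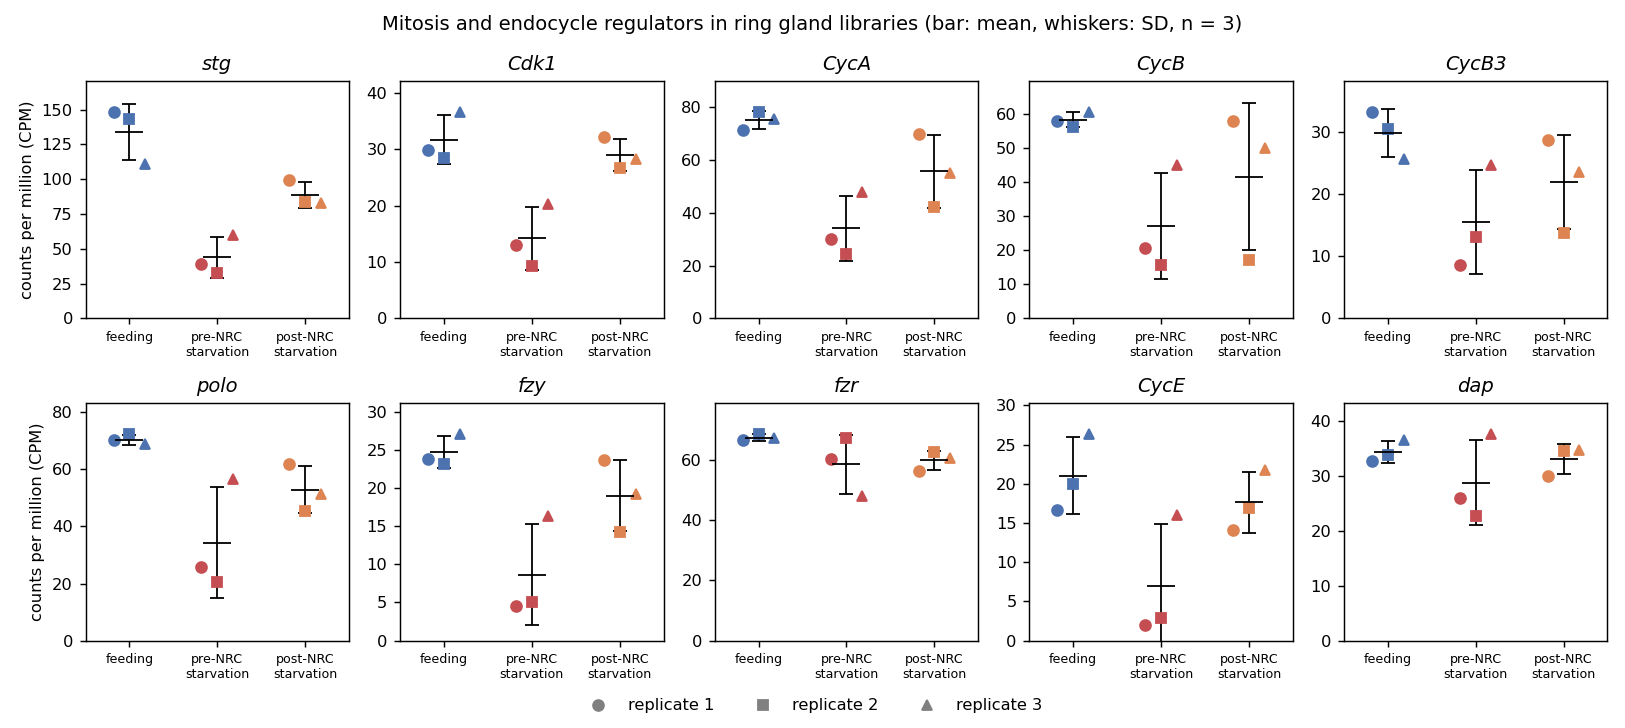
Level of each gene in CPM (vertical axis, from 0, a separate scale for each gene) in the 3 groups (horizontal axis). Points are libraries with a marker shape per replicate number, bars are means and whiskers SD (n = 3; the lower whisker of CycE in pre-NRC starvation ends at 0). The pre-NRC libraries of replicates 1 and 2 lie low for most genes and that of replicate 3 lies higher. The groups of fzr and dap differ less. For dap the pre-NRC libraries of replicates 1 and 2 (26.1 and 22.7 CPM) still lie below all feeding libraries, and for fzr all post-NRC libraries do.

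The first comparison asks how the division genes of the gland differed in larvae starved before the checkpoint. Levels of stg, Cdk1, CycA and fzy fell, by 1.14 to 1.61 on the log2 scale, and no gene rose. These were 4 of 10 genes past an adjusted p of 0.05 in edgeR's quasi-likelihood test with Benjamini-Hochberg adjustment. Of all 10883 genes tested, 11.5% were called lower in this comparison and 27.5% in either direction. Below an unadjusted p of 0.05 lay 6 of the 10, beside 41.3% of all genes. The median log2 change of the 10 genes was −1.12, beside 0.00 for all genes tested. For 8 of the 10 genes every pre-NRC library lay below every feeding library, which held for 23.1% of all genes, and only the groups of fzr and dap overlapped.

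The phosphatase gene stg, the trigger of mitotic entry, had 148, 143 and 111 CPM in feeding replicates 1, 2 and 3. It had 39.0, 32.4 and 60.1 CPM in pre-NRC starvation, and every starved library lay far below every feeding one. The log2 change was −1.61 (SE 0.26, adjusted p = 0.0046 in edgeR). This call held with each of the 9 libraries left out in turn, with a highest adjusted p of 0.0246. The kinase gene Cdk1 had 29.9, 28.5 and 36.6 CPM in feeding and 13.0, 9.27 and 20.3 CPM in pre-NRC starvation, with no overlap. Its log2 level fell by 1.16 (SE 0.29, adjusted p = 0.0203 in edgeR). The cyclin gene CycA, which acts in S phase and early mitosis, was even across feeding libraries with 71.5, 78.2 and 75.5 CPM. It had 30.2, 24.4 and 47.8 CPM in pre-NRC starvation, again all lower, and fell by 1.14 (SE 0.29, adjusted p = 0.0209 in edgeR). The calls of Cdk1 and CycA were lost without feeding replicate 1, feeding replicate 2, pre-NRC replicate 1 or pre-NRC replicate 2, with adjusted p-values of up to 0.065 and 0.07.

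The B-type cyclins and polo lay lower in every pre-NRC library, but did not pass the threshold in edgeR with 1 coefficient per group. CycB, a mitotic partner of Cdk1, had 57.9, 56.2 and 60.5 CPM in feeding and 20.5, 15.7 and 44.8 CPM in pre-NRC starvation. Its log2 change was −1.11 (SE 0.49, adjusted p = 0.124 in edgeR). CycB3, a cyclin that promotes anaphase in the fly embryo, had 33.2, 30.5 and 25.6 CPM in feeding and 8.56, 13.2 and 24.7 CPM in pre-NRC starvation. The third pre-NRC library thus came close to the lowest feeding library, and the log2 change was −0.94 (SE 0.41, adjusted p = 0.114 in edgeR). The kinase gene polo had 70.1, 72.3 and 68.8 CPM in feeding and 25.8, 20.5 and 56.5 CPM in pre-NRC starvation. Its log2 change was −1.04 (SE 0.35, adjusted p = 0.056 in edgeR), and it passed in DESeq2 (adjusted p = 0.0358) and limma-voom (adjusted p = 0.0324).

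Of the activators of the anaphase-promoting complex, fzy was called and fzr was not, which is no test of a difference between them. The mitotic activator fzy had 23.8, 23.2 and 27.1 CPM in feeding and 4.55, 5.09 and 16.3 CPM in pre-NRC starvation. Its log2 level fell by 1.51 (SE 0.48, adjusted p = 0.0451 in edgeR). Leaving out any library other than pre-NRC replicate 3 raised this adjusted p above 0.05, to at most 0.134. It was also above 0.05 with RLE, upper-quartile or no scaling factors and with the 2 compared groups alone. The endocycle activator fzr had 66.6, 68.6 and 67.3 CPM in feeding and 60.5, 67.3 and 48.0 CPM in pre-NRC starvation. Its groups overlapped and its log2 change was −0.20 (95% interval −0.60 to 0.19, adjusted p = 0.413 in edgeR), an interval that leaves room for a modest change either way. On the FPKM scale fzr was 2.16, 2.37 and 1.92 times as high as fzy in the feeding libraries. The ratio was 11.2, 11.2 and 2.26 in pre-NRC replicates 1, 2 and 3, so replicate 3 lay within the range of feeding and the other libraries far above it. The mean log2 ratio was 1.10 ± 0.15 in feeding and 2.72 ± 1.33 in pre-NRC starvation (SD, n = 3 each). No test was made of this ratio.

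**Figure D2:**
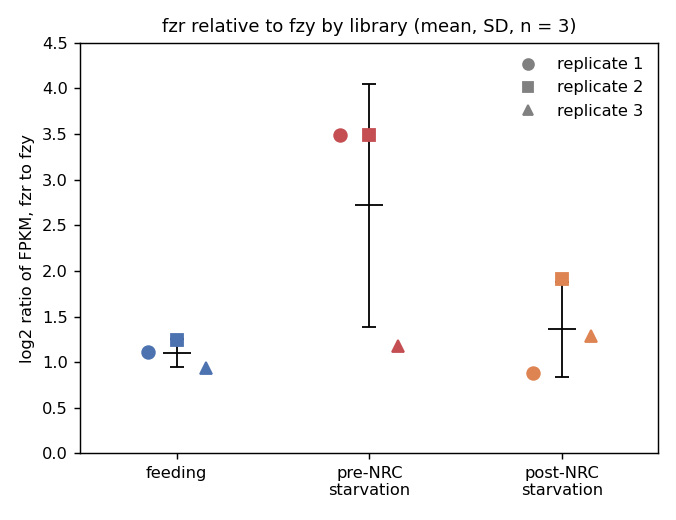
log2 ratio of the FPKM of fzr to that of fzy (vertical axis) in each library by group (horizontal axis). Points are libraries with a marker shape per replicate number, and the horizontal line and whiskers are mean and SD (n = 3). Replicates 1 and 2 of pre-NRC starvation stand above all other libraries and replicate 3 lies among the feeding and post-NRC libraries.

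CycE, which drives S phase in mitotic cycles and in endocycles, had the widest spread. It had 16.7, 20.0 and 26.3 CPM in feeding, from counts of 534, 662 and 860, and 1.93, 2.85 and 16.1 CPM in pre-NRC starvation, from counts of 64, 93 and 578. Replicates 1 and 2 stood at 9.18% and 13.6% of the feeding mean and replicate 3 at 76.4%. The log2 change over all 3 was −1.60 (SE 0.71, adjusted p = 0.122 in edgeR), whereas limma-voom gave −2.17 (adjusted p = 0.0307). The inhibitor gene dap had 32.7, 33.9 and 36.5 CPM in feeding and 26.1, 22.7 and 37.6 CPM in pre-NRC starvation. The third pre-NRC library was above all feeding libraries and the others below them, and the log2 change was −0.25 (95% interval −0.75 to 0.24, adjusted p = 0.413 in edgeR).

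The number of genes that passed changed with the libraries and the tool used. DESeq2 called 5 of the 10 lower, with polo added, beside 14.2% of all genes, and limma-voom called 6, with polo and CycE added, beside 12.0%. Without pre-NRC replicate 3, 8 of the 10 genes were called lower in edgeR, beside 14.0% of all genes: stg, Cdk1, CycA, CycB, CycB3, CycE, fzy and polo. CycE then changed by −3.13 (adjusted p = 0.00115) and fzy by −2.35 (adjusted p = 0.00136). Without feeding replicate 1, feeding replicate 2, pre-NRC replicate 1 or pre-NRC replicate 2, only stg was called. The share of all genes called in these fits is not given here, so this count cannot be set against it. With the replicate number as a block, 7 genes were called lower, beside 18.8% of all genes, with CycE (adjusted p = 0.0274), polo (adjusted p = 0.0356) and CycB (adjusted p = 0.0458) added. With replicates 1 and 2 alone 7 were called lower, beside 21.3% of all genes. Between libraries of the same replicate number, all 10 genes were lower in pre-NRC starvation in numbers 1 and 2, and 9 in number 3, where dap was the exception. The direction was thus shared by all 3 numbers for 9 genes, but for the 8 with groups that did not overlap this was already fixed. The share of all genes lower in this way is not given here. For all of the 9 genes but fzr, the size was smaller in the third. That library also had the highest summed marker level of its group for prothoracic gland, fat body, trachea, salivary gland, glia, and neuroblast and neuron. It had the lowest for corpora allata, corpora cardiaca, hemocyte and lymph gland, and muscle and aorta, and was in the middle for imaginal disc.

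**Figure D3:**
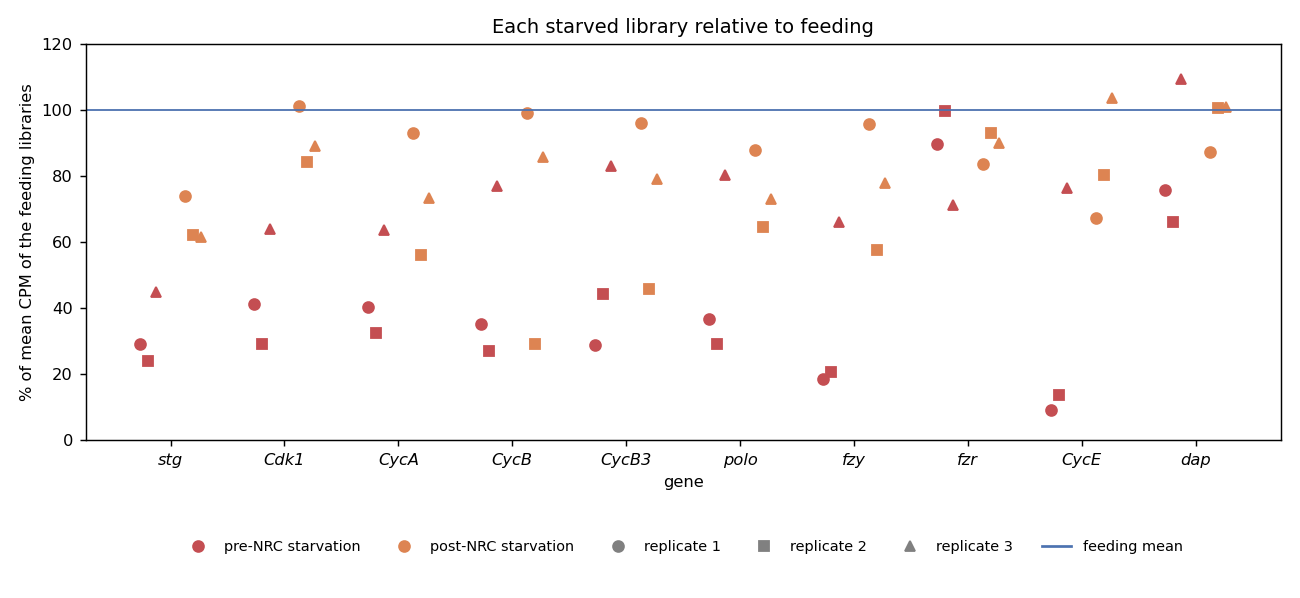
Each starved library as a percentage of the mean CPM of the feeding libraries (vertical axis) for the 10 genes (horizontal axis). Colours are the starved groups, marker shapes the replicate numbers, and the line at 100 is the feeding mean. The median over the 10 genes is 36.0%, 29.2% and 73.8% in pre-NRC replicates 1, 2 and 3 and 90.5%, 63.4% and 82.5% in the post-NRC replicates.

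Other genes of the cell cycle were read from 7 lists, with the 10 genes left out. Of 144 tested, 31 were called lower in pre-NRC starvation and 1 higher, with a median log2 change of −0.38, so 21.5% were lower and 0.694% higher, against 11.5% lower and 16.1% higher among all genes. By list, 15.4% to 27.8% were called lower, and the lowest of these shares lie near that of all genes. Of 18 genes for entry into mitosis, 5 fell, with a median of −0.55: the checkpoint kinase gene grp changed by −1.52 (SE 0.28, adjusted p = 0.00772) and its partner Claspin, which helps activate it, by −2.41 (SE 0.56, adjusted p = 0.0158). Both act in a checkpoint that holds back entry, so the falls in this list were not all of genes that promote it. The phosphatase gene mts changed by −0.91 (SE 0.24). Also in this list, bora, a cofactor in the activation of the Aurora A kinase, had 259, 227 and 128 counts in feeding and 0 in all 3 pre-NRC libraries, which makes it at least 213-fold higher in feeding, against a floor of 3 counts over the group. In post-NRC starvation bora had 0, 17 and 204 counts, so it varied strongly within a group and a count of 0 was not confined to pre-NRC libraries. Of 16 other cyclins and kinases, 4 fell (median −0.38), and Cks30A, a small subunit that binds Cdk1, changed by −1.05. The others were Cdk9 (−0.95) and Cdk8 (−0.93), which act in transcription, and CycY (−0.95). The mitotic cyclin genes CycA, CycB and CycB3 are among the 10 genes and so could not be counted here.

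For later steps of division and for S phase the counts were as follows, to be read against the 11.5% of all genes called lower. Of 23 genes of the spindle checkpoint and kinetochore, 4 fell (median −0.34), among them Bub3 (−1.01), a checkpoint protein, and aurB (−1.28), the kinase that corrects spindle attachment. Of 32 genes of the spindle and cytokinesis, 8 fell and 1 rose (median −0.61): the septin gene pnut, needed for cytokinesis, changed by −1.16, feo, which bundles microtubules of the central spindle, by −1.22, and the centriole gene ana1 by 0.80. Of 13 genes for subunits, activators, inhibitors and ubiquitin-conjugating enzymes of the anaphase-promoting complex, 2 subunit genes fell (median −0.34), ida by 0.97 and Cdc27 by 0.61. Of 21 genes of cohesin and condensin, 4 fell (median −0.19), with Top2, which untangles DNA, at −1.01. Of 24 genes for the step into S phase and the endocycle, 4 fell (median −0.38), among them dup (−1.87), which licenses replication origins, and Rbf (−0.72), a repressor of S phase genes. The last list therefore held falls of genes with opposite roles. With library totals in place of TMM factors, 2 genes of the spindle and cytokinesis list were called in place of 9, and the counts of this and the other lists under further settings are given with the processing.

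The second comparison asks how the genes differed in larvae starved after the checkpoint. None of the 10 genes was called against feeding in edgeR, and none in DESeq2 or limma-voom, beside 0.809% of all genes in either direction and 0.175% lower. Only stg was below an unadjusted p of 0.05 in edgeR, which counts 1 gene of 10, where 14.8% of all genes were. All 10 log2 changes were below 0, from −0.60 to −0.05, with a median of −0.39 beside 0.02 for all genes tested. The groups did not overlap for 4 genes, stg, CycA, fzr and polo, and 10.3% of all genes lay lower in this way.

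Post-NRC levels of stg were 99.1, 83.5 and 82.6 CPM, all below the feeding libraries, with a log2 change of −0.60 (SE 0.25, unadjusted p = 0.0417, adjusted p = 0.315 in edgeR). Those of Cdk1 were 32.1, 26.7 and 28.2 CPM and overlapped feeding (−0.13, 95% interval −0.77 to 0.52). CycA had 70.0, 42.1 and 55.1 CPM and polo 61.8, 45.5 and 51.5 CPM, both below feeding in every library, with log2 changes of −0.43 and −0.41 (adjusted p = 0.545 and 0.659 in edgeR). CycB had 57.7, 17.0 and 49.9 CPM, so that replicate 2 was as low as the pre-NRC libraries and the others were near feeding. CycB3 had 28.7, 13.7 and 23.6 CPM, with the same library lowest. Their log2 changes were −0.49 (95% interval −1.59 to 0.62) and −0.44 (95% interval −1.36 to 0.48). The activator gene fzy had 23.6, 14.2 and 19.2 CPM (−0.38, 95% interval −1.44 to 0.68) and fzr had 56.5, 62.7 and 60.8 CPM (−0.17, 95% interval −0.57 to 0.23). The ratio of fzr to fzy on the FPKM scale was 1.85, 3.75 and 2.43, with a mean log2 ratio of 1.36 ± 0.52 (SD, n = 3), and replicate 1 lay below all feeding libraries. CycE had 14.2, 16.9 and 21.8 CPM and dap 30.0, 34.6 and 34.7 CPM, both overlapping feeding. The interval of CycE was wide, −1.81 to 1.30, and that of dap was −0.55 to 0.44. Of the 144 other cell cycle genes none was called, with a median of −0.12.

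**Figure D4:**
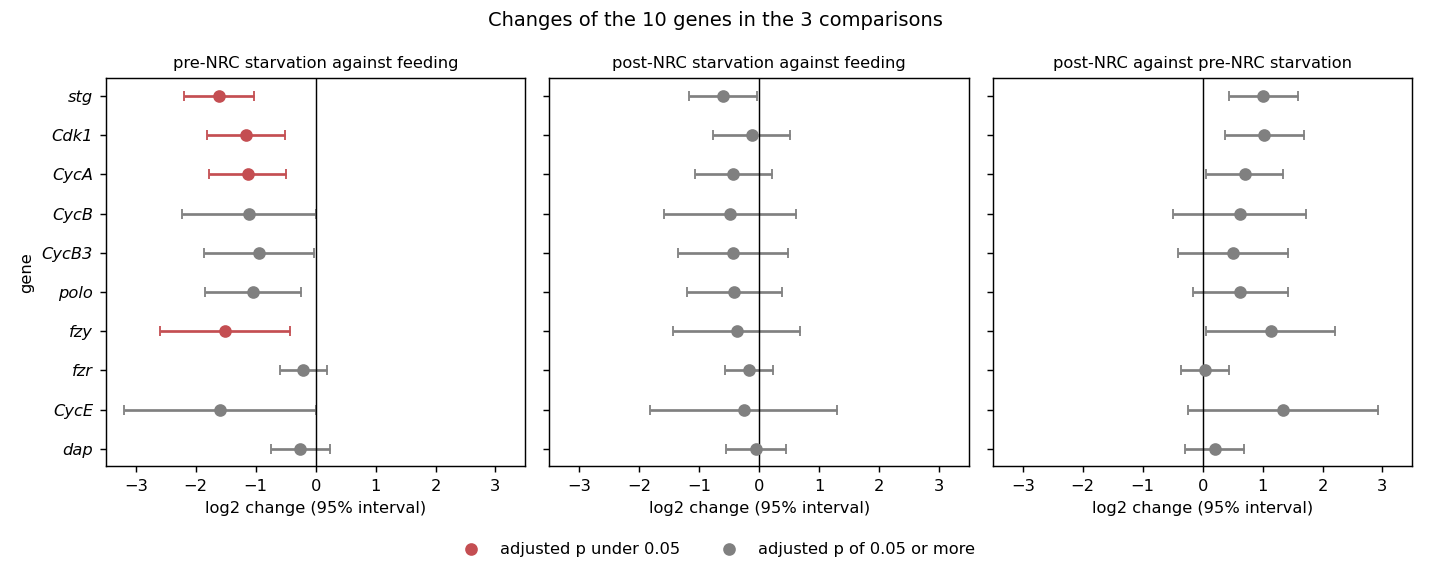
log2 change with its 95% interval (horizontal axis) of each of the 10 genes (vertical axis) in the 3 comparisons (panels), from edgeR. Red points passed an adjusted p of 0.05 and grey points did not. The 4 red points, stg, Cdk1, CycA and fzy, are in the panel of pre-NRC starvation against feeding.

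The third comparison sets the starved groups against each other, and shares its libraries with the comparisons above. All 10 log2 changes of post-NRC against pre-NRC starvation were above 0, with a median of 0.67 beside −0.02 for all genes tested, and no gene passed an adjusted p of 0.05 in edgeR with 1 coefficient per group. At this threshold 5.19% of all genes were called in either direction and 1.9% higher. Below an unadjusted p of 0.05 lay 4 of the 10 genes (stg, Cdk1, CycA and fzy) and 27.0% of all genes. DESeq2 called 2 higher, stg and Cdk1, beside 6.56% of all genes, and limma-voom called 1, stg, beside 2.64%.

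The groups did not overlap for 2 genes, stg and Cdk1, and 13.7% of all genes lay higher in this way. The log2 change was 1.01 for stg (SE 0.25, adjusted p = 0.0532 in edgeR) and 1.03 for Cdk1 (SE 0.29, adjusted p = 0.068). Those of fzy and CycE were as large or larger, 1.14 (SE 0.47, adjusted p = 0.167) and 1.34 (SE 0.70, adjusted p = 0.253), with wider errors, and without pre-NRC replicate 3 they were 1.97 and 2.88 (adjusted p = 0.0058 and 0.0045 in edgeR). The difference for CycA was 0.71 (adjusted p = 0.154), for polo 0.63 (adjusted p = 0.281), for CycB 0.62 (adjusted p = 0.444) and for CycB3 0.50 (adjusted p = 0.454). For fzr the difference was 0.03 (95% interval −0.36 to 0.43), with a sign that changed with the scaling, and for dap 0.20 (95% interval −0.30 to 0.70). Without pre-NRC replicate 3, 6 genes were called higher in edgeR (stg, Cdk1, CycA, CycE, fzy and polo), beside 6.52% of all genes. With replicates 1 and 2 alone 6 were called higher as well, beside 15.2% of all genes. Leaving out any other library gave 0 called genes, and the share of all genes called in those fits is not given here. Of the 144 other cell cycle genes 3 (2.08%) were called higher, a share near the 1.9% of all genes: grp (1.21), Cdk9 (1.09) and Septin2 (0.97), a septin of the cytokinesis ring.

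The 10 genes were compared among themselves by their profiles over the 9 libraries, taken as log2 CPM centred on each gene's mean. The measure was the mean absolute difference between 2 profiles, a description over libraries that share group and replicate effects. The closest pair was CycA and polo, 0.12 apart, followed by Cdk1 and CycA (0.18) and by stg and polo (0.18). The farthest pair was CycE and fzr, 1.04 apart, the widest and the flattest profile. The profile of fzr deviated by 0.12 on average from its own mean and that of dap by 0.19, whereas the deviation was 0.49 to 0.74 for the 7 mitotic genes and 1.02 for CycE.

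Among 4499 other named genes with a mean of at least 5 CPM, the profile nearest to fzy was that of Mcm7 (0.09), a subunit of the replicative helicase, followed by Rpn2 (0.17), a subunit of the proteasome. Nearest to stg were Atox1 (0.09), a copper chaperone, and Orc5 (0.10), a subunit of the origin recognition complex. Nearest to Cdk1 were Tmhs (0.11) and the mitotic kinesin gene Klp67A (0.11), and nearest to CycA were Lsm11 (0.09), which acts in histone mRNA processing, and Surf4 (0.11). For CycB the nearest were Pgant7 (0.21), listed in the table as GalNAc-T2, and polo (0.23), and for CycB3 Tsp74F (0.16) and CycY (0.17). For CycE they were WRNexo (0.20), an exonuclease of the Werner family, and RhoGEF64C (0.23). Nearest to polo were Sec61gamma (0.10) and dah (0.11). The flat profile of fzr was nearest to those of phol (0.06) and GlnRS (0.07), listed in the table as Aats-gln, and that of dap to Nelf-E (0.08) and sqh (0.09).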

How the data were processed

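RNA of 9 pools of ring glands (3 groups of 3) was measured. The whole-number counts per gene and library were deposited by the authors, as were the FPKM values, which the authors scaled by gene length and library size, per the file headers. HISAT2, StringTie, Bowtie, Cufflinks and the build BDGP6 are named in the submitters' processing notes; their versions and roles and the strand setting are not stated. Feeding columns were assigned by elimination, as the only ones without a starvation term. The design text calls the pools biological replicates, and p-values measure the spread between them.

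Genes with low counts were removed (filterByExpr, 10883 kept). The quasi-likelihood test of edgeR 4.0.16 (R 4.3.3) was run with TMM factors on all 9 libraries, two-sided, with 1 coefficient per group and Benjamini-Hochberg adjustment over all genes tested (threshold 0.05), and the fit was tested on simulated data. The biological coefficient of variation was 50.6%. For log2 CPM the prior count was 2. Levels between genes and the ratio of fzr to fzy used FPKM. Bounds against counts of 0 cover counting error only. DESeq2 1.42.0, limma 3.58.1, other scaling factors, no low-count filter, fewer libraries, a block, another threshold and FPKM were alternatives, and a term for replicate 3 was added after seeing the data.

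Same-number libraries deviated together, with correlations of 0.163, 0.116 and 0.302 for pre-NRC starvation and feeding and 0.126, 0.119 and 0.297 for post-NRC starvation and feeding. All were over 0.1, the criterion used for pairing by number. Between replicates 1 and 2 of pre-NRC starvation and feeding, libraries of different numbers also passed it (0.125 and 0.116). The criterion thus does not tell number 1 from number 2. Pairing rests on the data, since the labels give none, and the pattern is mainly replicate 3 against replicates 1 and 2. The values reported come from the fit without the block, and the blocked fit is given beside a comparison with feeding where it changes a call. The starved groups (0.0998, 0.149 and 0.365) were not taken as paired.

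The 10 genes, 7 pathway lists, 11 marker lists and tests were chosen with earlier results of these data known, and support nothing beyond their values. Of the genes listed, 213 matched by table symbol, 6 by current symbol, 6 by alias, and 5 were not analysed here. Named were all 10 genes, up to 4 called genes per list and comparison with the smallest p (some left out for length), and the 2 nearest profiles of each gene. Promoter and protein sequences were not analysed here.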

Additional observations from a re-analysis of the deposited data

How the results depend on the processing

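In pre-NRC starvation against feeding, 4 of 10 genes were called in the main analysis, 7 with the replicate block, 7 with replicates 1 and 2 alone, 5 in DESeq2, 6 in limma-voom, 6 with a term for replicate 3, and 1 to 8 with 1 library left out. In post-NRC against pre-NRC starvation the count was 0 in the main analysis, 2 in DESeq2, 1 in limma-voom, 2 with the replicate block (stg, adjusted p = 0.0455; Cdk1, adjusted p = 0.0348), 6 with replicates 1 and 2 alone, 3 with a term for replicate 3, 2 at an adjusted p under 0.1, and 0 to 6 with 1 library left out. In post-NRC starvation against feeding no setting gave a call, the block included. The share of all genes called is given above for some of these settings only, so the other counts cannot be set against it. The causes of these shifts were not tested. Signs turned only for changes near 0. In post-NRC starvation against feeding Cdk1 was at 0.0081 with replicates 1 and 2 alone, and dap at 0.026 with upper-quartile factors and at −0.092 to 0.011 with 1 library left out. In post-NRC against pre-NRC starvation fzr was at −0.0057 with RLE factors, at −0.0056 in DESeq2, at −0.083 with replicates 1 and 2 alone, and at −0.094 to 0.15 with 1 library left out. The mean log2 ratio of fzr to fzy in feeding was 1.45 on CPM, which keeps gene length in, in place of 1.10. Other scalings shifted the median of all genes by less than 0.1. Called genes in the lists, pre-NRC starvation against feeding, went from 9 to 2 (totals) for spindle and cytokinesis, from 4 to 2 (RLE, totals) and 1 (upper quartile) for the spindle checkpoint, from 2 to 1 (RLE, upper quartile, totals) for the anaphase-promoting complex, and from 4 to 2 (upper quartile, totals) and 7 (block) for S phase and the endocycle. Depth limits CycE most, at 64 counts in its lowest library.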
